A study of Mus musculus with 4 samples.

Results

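The mouse Distal-less homeobox family consists of Dlx1, Dlx2, Dlx3, Dlx4, Dlx5 and Dlx6, which lie in the genome as the linked pairs Dlx1/Dlx2, Dlx3/Dlx4 and Dlx5/Dlx6. Members were taken by gene symbol from the authors' deposited table, in which each had a row of its own, 6 of 24216 rows in all. Their levels were compared between 2 groups of XLacZ4 mouse cells, one from molar pulp and one from incisor pulp, with 2 libraries of total RNA per group. XLacZ4 mice carry a LacZ reporter that is active in mural cells, the pericytes and smooth muscle cells of small vessels. Dissociated teeth were stained with FDG, which fluoresces once beta-galactosidase has cleaved it, and the fluorescent cells were sorted. All groups therefore carry the reporter, and no unsorted or reporter-free group was analysed here. The labels give neither the age of the mice nor the jaw that the teeth came from, and they do not say whether the 2 libraries of a tissue are separate animals. For the incisor libraries the protocol names molars as well, so their tissue rests on the title, source and tissue labels.

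Dlx genes encode transcription factors that bind DNA through a homeodomain, and they are the vertebrate relatives of the fly gene Distal-less. In the embryonic jaw they are switched on in nested domains: Dlx1 and Dlx2 in the upper and lower jaw primordia, Dlx5 and Dlx6 in the lower jaw under the control of endothelin signalling, and Dlx3 and Dlx4 nearest the tip. Mice without Dlx1 and Dlx2 lack upper molars, and in mice without Dlx5 and Dlx6 the lower jaw takes on upper jaw features. Later, Dlx3 and Dlx5 act in cells that lay down bone, dentin and enamel.

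Dlx5 was higher in molar cells, and it was the only member of the family to be called. In the authors' deposited table its FPKM (fragments per kilobase of transcript, scaled to sequencing depth) was 3.91 in incisor and 131 in molar, a 33.4-fold difference. Its linked partner Dlx6 was low beside Dlx3 and Dlx4 in both tissues, at 1.64 in incisor and 5.02 in molar. Dlx3 and Dlx4 were the highest members in incisor and were abundant in both tissues, and Dlx1 and Dlx2 were low beside them in both. A row is named called where the authors' q value, their p-value adjusted for all rows tested, was under 0.05. By this rule 1 of 6 members was called higher in molar, against a background of 11.9% of 18770 tested rows, and 0 of 6 were called higher in incisor, against 4.28%. The authors' own mark of significance gave the same counts, 1 and 0, against backgrounds of 12.7% and 4.69%, and so did a 4-fold rule without q (6.36% and 2.49%). All 6 members were tested and had an FPKM of at least 1 in both tissues. Each tissue has 1 combined value per gene, so no replicate error is available, the depth of the libraries is unknown, and effects of sorting or preparation cannot be told apart from effects of the tooth. In bulk RNA, fewer cells of a type and less RNA per cell cannot be told apart.

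**Figure D1:**
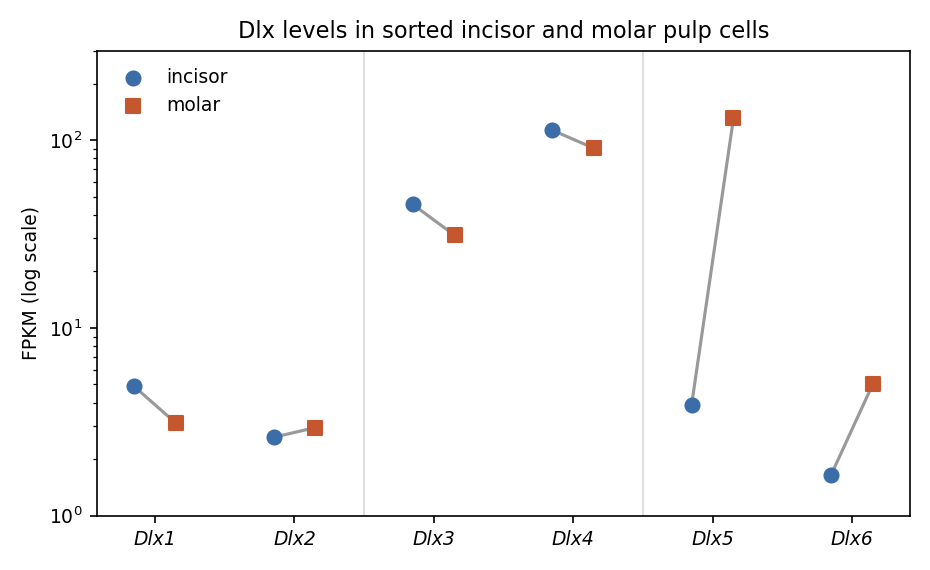
FPKM of each Dlx gene (log scale) in incisor cells (circles) and molar cells (squares), the authors' combined value per tissue with no error available; grey lines join the values of 1 gene and vertical lines part the linked pairs. Dlx5 went from 3.91 in incisor to 131 in molar, while the other 5 members differed by at most 3.05-fold and were not called; the small difference of Dlx2 changed sign when both tissues were scaled to the same median row or total.

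Dlx5 encodes a factor that promotes the differentiation of bone-forming cells. Its row in the authors' deposited table (mm10, chr6:6877801-6882068) gave a log2 fold of 5.06 for molar over incisor, with p = 5e-05 and q = 0.000664. That q is the smallest in the authors' deposited table, where 1414 rows share it, so it does not rank Dlx5 among them. By fold, Dlx5 was 150th of 2005 rows called higher in molar with a value above 0 in both tissues, and a further 223 such rows were listed at 0 in incisor. By level, the FPKM of Dlx5 ranked 1002nd of 18770 tested rows in molar and 7427th in incisor. Dlx5 thus lay above 94.7% of tested rows in molar cells and above 60.4% in incisor cells.

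Dlx6, which acts with Dlx5 in the lower jaw, was 3.05-fold higher in molar by its FPKM, a log2 fold of 1.61, and this difference was not called (q = 0.675 in the authors' deposited table). The levels placed Dlx6 above 46.1% of tested rows in incisor and above 65.0% in molar. Other homeobox genes with nearly the same fold were called in the authors' deposited table, Meis3 at 4.44 in incisor and 13.6 in molar (q = 0.0472) and Msx1 at 18.5 and 56.4 (q = 0.0157). The FPKM of Dlx5 was 2.38 times that of Dlx6 in incisor and 26.0 times in molar. The log2 folds of the pair thus differed by 3.45, although the genes lie 9.24 kb apart and point towards each other. Whether the folds of Dlx5 and Dlx6 differ beyond error was not tested, since the table holds no replicates.

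The coding sequences of the linked partners show how far their reads can be told apart. The following 180 bases, taken from the GENCODE M21 transcripts, are the in-frame coding stretch most alike in all 6 members. They cover most of the homeobox, the part that encodes the DNA-binding homeodomain. Capitals mark the 94 bases that are the same in all 6 members.
Dlx5: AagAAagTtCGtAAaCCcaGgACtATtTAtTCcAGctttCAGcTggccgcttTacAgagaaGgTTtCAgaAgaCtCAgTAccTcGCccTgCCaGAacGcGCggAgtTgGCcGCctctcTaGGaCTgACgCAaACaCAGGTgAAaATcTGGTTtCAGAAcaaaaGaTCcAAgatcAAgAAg
Dlx6: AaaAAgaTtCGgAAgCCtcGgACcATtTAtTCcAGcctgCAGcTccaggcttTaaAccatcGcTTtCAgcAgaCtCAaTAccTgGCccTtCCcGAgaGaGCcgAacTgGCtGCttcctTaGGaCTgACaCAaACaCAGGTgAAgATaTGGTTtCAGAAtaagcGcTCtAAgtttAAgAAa
Dlx3: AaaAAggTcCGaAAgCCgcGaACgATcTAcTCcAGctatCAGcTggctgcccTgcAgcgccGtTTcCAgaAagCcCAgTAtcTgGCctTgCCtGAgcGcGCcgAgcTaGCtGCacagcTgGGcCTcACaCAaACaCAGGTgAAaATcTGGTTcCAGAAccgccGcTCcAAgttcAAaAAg
Dlx4: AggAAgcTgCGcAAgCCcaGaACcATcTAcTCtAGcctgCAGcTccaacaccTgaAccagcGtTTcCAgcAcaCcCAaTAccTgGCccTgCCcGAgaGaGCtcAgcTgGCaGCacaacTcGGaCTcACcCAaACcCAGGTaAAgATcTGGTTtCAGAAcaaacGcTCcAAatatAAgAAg

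Dlx5 and Dlx6 had 73.9% of these bases in common, with a longest identical run of 14 bases, and Dlx3 and Dlx4 had 72.2% in common. The most alike members were Dlx2 and Dlx3 (82.8%) and the least alike Dlx4 and Dlx5 (67.2%), so linked partners were not the closest in sequence. Within the subfamilies Dlx1, Dlx4, Dlx6 and Dlx2, Dlx3, Dlx5, each of which takes 1 gene from every linked pair, the 6 comparisons ranged from 72.2% to 82.8% with a median of 76.4%. The 9 comparisons between the subfamilies ranged from 67.2% to 76.1% with a median of 71.7%. Over whole transcripts, no word of 32 bases was shared between the chosen transcripts of any 2 members. No 32-base word of the chosen transcripts of Dlx3 and Dlx5 occurred in another annotated gene. Other transcripts of Dlx5 and words with mismatches were not compared. In Dlx6, 10.4% of words recurred in 3660 other genes, and how far reads from those genes entered its value is not known.

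Dlx4 was the highest of all members in incisor, with an FPKM of 113 there and 90.6 in molar, and its values lay above 96.2% and 92.9% of tested rows. In the authors' deposited table (mm10, chr11:95140447-95159047) its log2 fold was -0.32 and it was not called (q = 0.456). The overlapping transcript Dlx4os is listed there at the same locus. Dlx3, a regulator of dentin and enamel genes whose human counterpart is mutated in tricho-dento-osseous syndrome, had an FPKM of 45.5 in incisor and 31.2 in molar. For Dlx3 (mm10, chr11:95120117-95125291) the authors' deposited table gave a log2 fold of -0.55 with q = 0.255. Both values of the pair were higher in incisor, by 1.25-fold for Dlx4 and 1.46-fold for Dlx3, and neither was called. The FPKM of Dlx4 was 2.49 times that of Dlx3 in incisor and 2.91 times in molar, so the balance within this pair was nearly the same in both tissues, and the log2 folds differed by -0.23 (Dlx3 minus Dlx4).

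Dlx1 and Dlx2, which together are needed for upper molars, share 1 locus in the authors' deposited table (mm10, chr2:71389260-71903858), and the genes lie 9.43 kb apart. Dlx1 had an FPKM of 4.88 in incisor and 3.11 in molar, a log2 fold of -0.65 that was not called (q = 0.653 in the authors' deposited table). Dlx2 had an FPKM of 2.61 in incisor and 2.95 in molar, with q = 0.914 in the authors' deposited table. Its log2 fold of 0.17 turned to -0.033 when folds were centred on the median row and to -0.42 when the FPKM totals of both tissues were set equal, so no direction is given for Dlx2. The FPKM of Dlx1 was 1.87 times that of Dlx2 in incisor and 1.06 times in molar. The molar values of both genes lie in a range that is hard to read: genes for odorant, vomeronasal and taste receptors, 1488 rows picked as a gauge with their values known, had a 99th percentile of FPKM of 3.78 for molar and 0.135 for incisor. The incisor values of Dlx1 and Dlx2 and both values of Dlx3, Dlx4, Dlx5 and Dlx6 were above the 99th percentile of their tissue, although the highest value of a receptor gene exceeded some of them: 7.94 in molar, above Dlx6, and 4.61 in incisor, above Dlx5, Dlx2 and Dlx6.

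**Figure D2:**
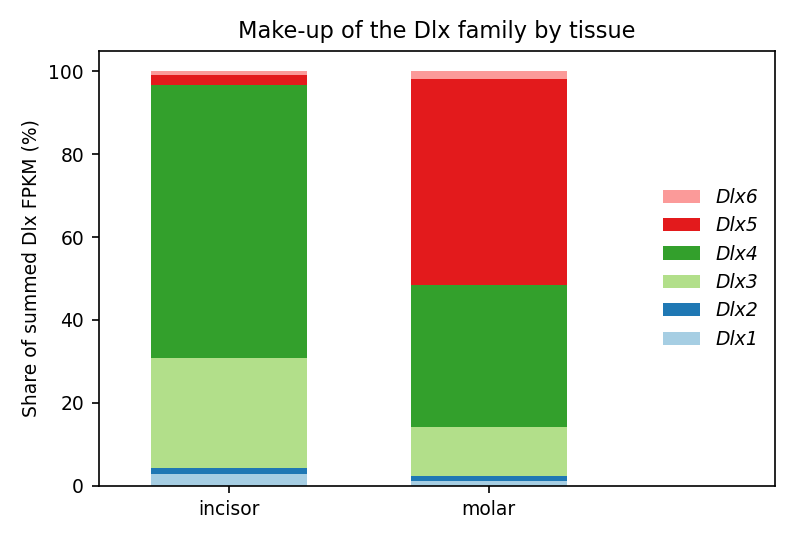
Share of each Dlx gene in the summed FPKM of Dlx1 to Dlx6 (percent, stacked to 100) in incisor and molar, from 1 combined value per tissue. Dlx4 held 65.9% of the incisor sum, and in molar Dlx5 held 49.6% and Dlx4 34.4%.

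Summed over the family, FPKM came to 172 in incisor and 264 in molar, and without Dlx5 to 168 and 133. The family sum was thus 1.53-fold higher in molar with Dlx5 and 1.26-fold higher in incisor without it. Dlx4 and Dlx3 held 65.9% and 26.5% of the incisor sum and 34.4% and 11.8% of the molar sum. Dlx5 held 2.28% of the incisor sum and 49.6% of the molar sum, as the plot of shares by tissue shows. Dlx1, Dlx2 and Dlx6 each held under 3% in either tissue, at most 2.84% (Dlx1 in incisor). In incisor the order of levels was Dlx4, Dlx3, Dlx1, Dlx5, Dlx2, Dlx6, and in molar it was Dlx5, Dlx4, Dlx3, Dlx6, Dlx1, Dlx2. Which neighbours in these orders differ beyond error cannot be given without replicates. The median log2 fold over the 6 members was -0.074, beside 0.21 over the 15875 tested rows above 0 in both tissues, and the FPKM totals of the tissues differed by a log2 ratio of 0.60. Relative to either shift Dlx5 remained higher in molar, with a log2 fold of 4.86 when centred on the median row and 4.47 with equal totals.

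Among 223 homeobox genes taken by symbol prefix from the authors' deposited table, 138 were tested. The Dlx family supplied 2 of the 5 highest of these genes in incisor and 3 of the 5 highest in molar. In incisor Dlx4 had the highest FPKM of these homeobox genes, and Tgif1 (76.3), Dlx3 and Prrx2 (41.9) were also among the 5 highest. In molar the order began with Tgif1 (178), followed by Dlx5, Dlx4, Msx1 (56.4) and Dlx3. Dlx5 moved from 26th of these homeobox genes by incisor level to second by molar level. Of the 132 other homeobox genes tested, the authors' deposited table called 12 (9.09%) toward molar and 2 (1.52%) toward incisor, both shares below the background over all rows.

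**Figure D3:**
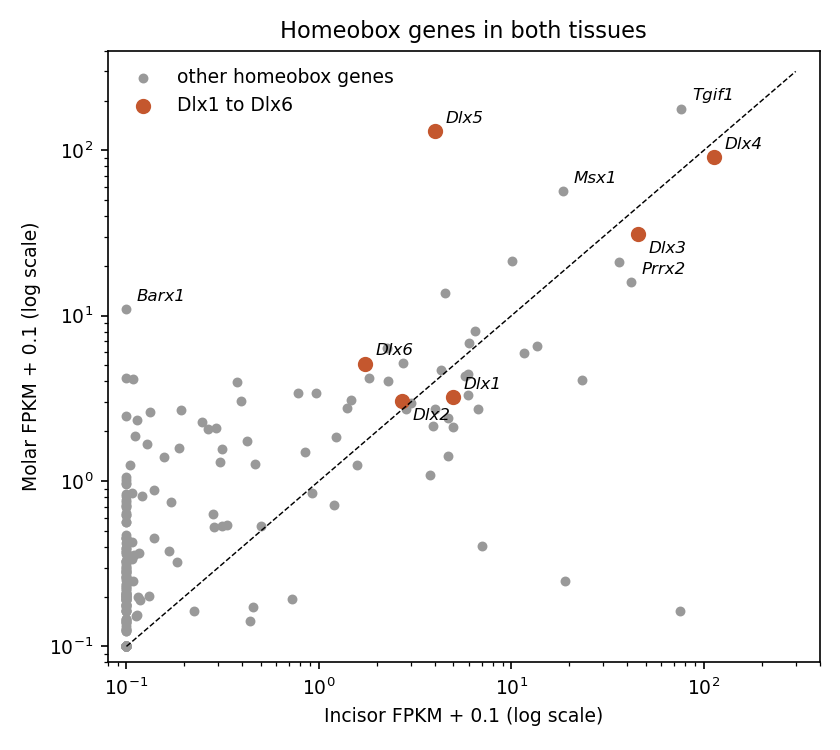
FPKM + 0.1 of each homeobox gene taken by symbol prefix, in incisor (horizontal, log scale) and in molar (vertical, log scale), from 1 combined value per tissue. Dlx genes are in orange and the dashed line marks equal values. Dlx3 and Dlx4 lie near the line at high levels, and Dlx5 lies far above it, at 3.91 in incisor and 131 in molar.

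The genes around each pair were read to see how far the difference at Dlx5 extended along the chromosome. Over all tested rows, 11.9% were called toward molar and 4.28% toward incisor. Within 500 kb of Dlx5/Dlx6 lay 3 other rows, of which 2 were tested and 0 called in either direction. On the Dlx6 side lay Shfm1 at 285 kb, with an FPKM of 738 in incisor and 880 in molar (q = 0.460 in the authors' deposited table), and Gm20619, which was listed at 0 in both tissues. On the Dlx5 side lay Sdhaf3 at 73.9 kb, with 63.0 and 55.0 (q = 0.616 in the authors' deposited table). Both tested neighbours of the Dlx5/Dlx6 pair thus had similar levels in the tissues and were not called. Around Dlx3/Dlx4, 21 of 22 rows were tested and 2 were called, both toward molar by the authors' deposited table: Ppp1r9b (1.46 in incisor, 7.22 in molar) and Slc35b1 (54.7 and 165). The nearest genes to Dlx3 and Dlx4 were Itga3, Pdk2 and Samd14 on one side and Tac4, Kat7 and Fam117a on the other, and none of these was called. Around Dlx1/Dlx2, 11 of 12 rows were tested and 1 was called, Dync1i2, higher in incisor at 53.6 against 14.8 (q = 0.00375 in the authors' deposited table). The nearest genes there were Metap1d, Hat1 and Slc25a12 on one side and Platr26, Itga6 and Pdk1 on the other, and none of these was called.

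**Figure D4:**
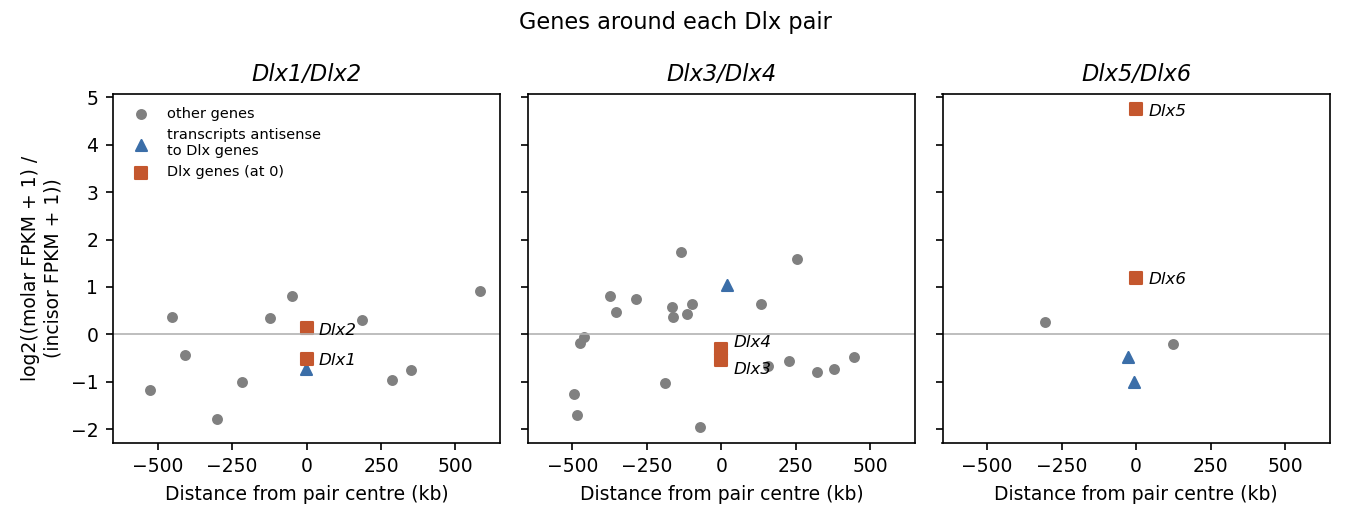
log2((molar FPKM + 1) / (incisor FPKM + 1)) of tested genes within 500 kb of each Dlx pair (circles), of transcripts antisense to Dlx genes (triangles) and of the Dlx genes, all drawn at 0 kb (squares), against the distance of the gene's centre from the pair's centre in kb. Dlx5 stands above every neighbour, and Sdhaf3 and Shfm1 beside it lie near 0; Dlx2 lies close to 0 and its sign changed with the scaling of the tissues.

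Transcripts that overlap Dlx genes or run antisense to them are long noncoding RNAs of the same loci. Of these, 4 were tested by the authors and 0 were called, against 11.9% of all tested rows toward molar and 4.28% toward incisor. All 4 are listed in the authors' deposited table at the same locus as the Dlx gene in their name. Dlx4os had an FPKM of 35.1 in incisor and 73.9 in molar (the authors' deposited table gives q = 0.203), opposite in sign to Dlx4. Dlx6os1, which starts between Dlx6 and Dlx5, had an FPKM of 18.6 in incisor and 13.1 in molar (q = 0.284 in the authors' deposited table), so it was above Dlx6 in both tissues, and its molar value was the lower one. Dlx1as stood at 2.89 and 1.35, and Dlx6os2 at 0.999 in incisor and at a listed 0 in molar. Some exonic bases of Dlx1 (6.21%), Dlx4 (2.42%) and Dlx6 (4.38%) also belong to such a transcript in GENCODE M21, and whether the authors counted by strand is not stated in the sources used. How far reads of these transcripts entered the values of Dlx1, Dlx4 and Dlx6 is not known, while no exonic base of Dlx2, Dlx3 or Dlx5 is shared.

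The promoter window of Dlx6os1 is shown because it lies in the gap between the uncalled Dlx6 and the called Dlx5, 0.915 kb past the end of Dlx6 and 8.02 kb from Dlx5. It spans 300 bases around the transcript's start (RefSeq, GRCm38.p6, minus strand, chr6:6869484-6869783). Capitals mark the letters TAATT and its reverse complement AATTA, a core that homeodomain proteins of many families can bind, counted on both strands with overlaps allowed.
Dlx6os1: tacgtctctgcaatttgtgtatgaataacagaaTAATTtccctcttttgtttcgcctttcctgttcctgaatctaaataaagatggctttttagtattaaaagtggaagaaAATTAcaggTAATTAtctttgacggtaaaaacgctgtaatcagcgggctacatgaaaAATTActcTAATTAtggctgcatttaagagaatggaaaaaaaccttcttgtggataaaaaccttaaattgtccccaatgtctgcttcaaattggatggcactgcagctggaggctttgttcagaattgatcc

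This window held 7 matches, where a TAATTA counts as 2. Of 32851 RefSeq promoter windows of the same length, 27.0% held at least 1 match and 0.140% held as many. The windows of Dlx1 and Dlx2, the 2 members found in the same promoter table, held 0 matches. A match is a run of letters and not a site at which binding was measured.

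Genes that induce or regulate Dlx genes were counted next. The authors' deposited table called 1 of 29 tested toward molar and 3 toward incisor, against 11.9% and 4.28% of all tested rows. Their median log2((molar FPKM + 1) / (incisor FPKM + 1)) was -0.41, against 0.21 over all tested rows. The gene called higher in molar was Bmp2, a growth factor of the BMP family that induces Dlx5 in bone-forming cells, at 9.68 in incisor and 26.7 in molar (q = 0.0160 in the authors' deposited table). The 3 called higher in incisor belong to the endothelin route that switches on Dlx5 and Dlx6 in the lower jaw: Ece1, which matures the endothelin peptide (34.0 in incisor, 5.81 in molar), and the G protein subunits Gnaq (44.0 and 10.4) and Gna11 (56.2 and 18.6). The ligand gene of that route, Edn1, stood at 0.137 and 1.29 (q = 0.0509, past the authors' own mark of significance in the authors' deposited table though not under 0.05), and Ednra, its receptor gene, at 7.71 and 5.18. Fgfr1 (46.0 in incisor, 51.4 in molar), Bmp4 (49.2 and 34.8), Mef2c (30.9 and 22.3) and Bmp7 (14.3 and 19.6) were the most abundant of those not called. The endothelin genes with q under 0.05, Ece1, Gnaq and Gna11, were thus higher in incisor, while Ednra was not called (q = 0.327 in the authors' deposited table). Whether the levels of these genes bear on Dlx5 was not tested. Edn1 passed only the authors' mark in the authors' deposited table. Its molar value of 1.29 was below the receptor genes' 99th percentile of 3.78, so no direction is given for Edn1.

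Jaw patterning factors that act with or after Dlx genes had called members in both directions. Of 18 tested, the authors' deposited table called 3 toward molar and 2 toward incisor, against 11.9% and 4.28% of all tested rows. The median on the same log2 scale was -0.19. Like Dlx5, Osr2, which limits where teeth form, was higher in molar (0.361 in incisor, 102.6 in molar). So were Barx1, a factor of the embryonic molar region that was listed at 0 in incisor and stood at 10.9 in molar, and Msx1, which is needed for tooth buds to advance. Alx4, a factor of facial skeleton growth (6.91 in incisor, 0.306 in molar), was among those higher in incisor. Prrx2 (41.9 in incisor, 15.8 in molar) and Msx2 (10.0 and 21.3) were not called.

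Genes of mineralised matrix that have been reported as Dlx targets also had called members in both directions. Of 16 tested, 2 were called toward molar and 3 toward incisor by the authors' deposited table, against 11.9% and 4.28% of all tested rows. The median log2 value was -0.57. Alpl, the alkaline phosphatase of mineralising cells, was higher in molar (61.1 in incisor, 183 in molar), as was the transcription factor gene Atf4 (42.3 and 282). Dspp, the dentin sialophosphoprotein gene that Dlx3 can activate (109 in incisor, 0.921 in molar), and the bone sialoprotein gene Ibsp (43.0 and 3.71) were among those higher in incisor. Col1a1 (316 and 154), Spp1 (207 and 129) and Col1a2 (174 and 126) were not called, nor were Runx2 (13.0 and 3.61) and Sp7 (4.70 and 5.20), the bone transcription factor genes downstream of Dlx5.

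Among enamel genes reported as targets of Dlx3 or Dlx2, those called were higher in incisor. The authors' deposited table called 0 of 12 tested toward molar and 4 toward incisor, against 11.9% and 4.28% of all tested rows. Their median log2 value was -0.32. The enamel matrix genes Amelx (20642 in incisor, 1937 in molar), Ambn (1782 and 614) and Enam (165 and 22.9) and the enamel protease gene Mmp20 (29.2 and 2.28) made up the 4. Dlx3 itself (45.5 and 31.2) was not among the called genes, and neither were Car12 (19.5 and 8.68) and Slc26a7 (2.41 and 2.06), ion transport genes of enamel-forming cells. Odam (0.0987 and 4.31), Amtn (0.464 and 1.296), Klk4 (1.20 and 1.46) and Slc34a2 (0.0335 and 0.141) had higher molar values and were not called either.

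Of 16 tested genes for Dlx cofactors and homeodomain partners, 4 were called toward molar and 1 toward incisor by the authors' deposited table. The shares over all tested rows were 11.9% and 4.28%, and the median log2 value of the 16 genes was 0.62. Maged1, whose protein binds Dlx5 and Msx2, was higher in incisor (1054 in incisor, 113 in molar), opposite to Dlx5. Smad6, an inhibitor of BMP signalling (0.482 and 9.61), the homeobox genes Meis2 (0.0319 and 2.50) and Meis3, and Msx1 were higher in molar. The molar level of Meis2 lies within the range reached by the receptor genes used as a gauge. Msx2 (10.0 and 21.3) and Tle3 (5.37 and 5.70), whose products can act beside Dlx proteins, were not called.

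**Figure D5:**
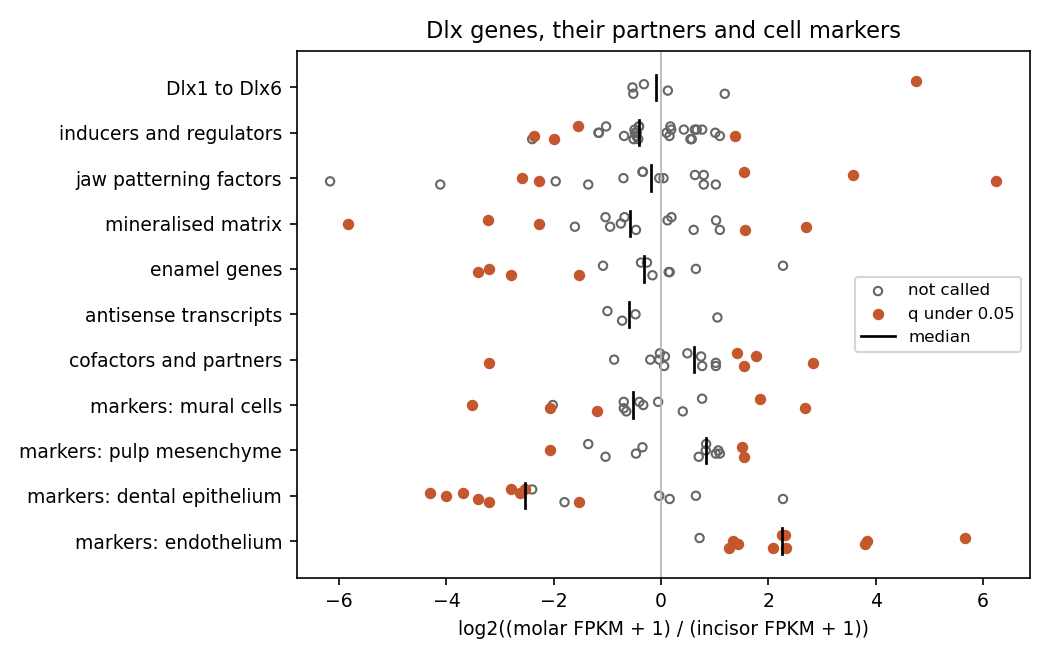
log2((molar FPKM + 1) / (incisor FPKM + 1)) of tested genes in the Dlx family, its related gene lists and 4 lists of cell type markers, with filled points where the authors' q was under 0.05, open points where it was not, and a bar at each list's median. Dlx5 is the filled point of the family at the right, 5 members lie between -0.53 and 1.19 (Dlx2 near 0, its sign depending on scaling), and the dental epithelium and endothelium markers lie on opposite sides.

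The sorted cells were a mixture, and the Dlx values are those of the mixture. Beside the marker counts that follow, 11.9% of all tested rows were called toward molar and 4.28% toward incisor. Of 14 mural cell markers tested, the authors' deposited table called 2 toward molar and 3 toward incisor, and their summed FPKM was 849 in incisor and 337 in molar. Most of the incisor sum came from 1 marker, so the sums give no direction for mural cells as a whole. Of 13 markers of pulp mesenchyme, where Dlx5 is known to be active, 2 and 1 were called, with sums of 2606 and 4385. Dcn (367 in incisor, 1047 in molar) and Msx1 (18.5 and 56.4) were called toward molar, and Pdgfra (26.4 and 5.55) toward incisor. Most of both sums came from Lum (1551 and 2778.5), which was not called. Of 12 odontoblast and osteoblast markers, 1 and 2 were called, with sums of 567 and 367, and Mepe was listed at 0 in incisor. Dental epithelium, a known site of Dlx2 and Dlx3 activity, had 0 of 15 markers called toward molar and 9 toward incisor, with sums of 23539 and 2647. Endothelium had 10 of 11 called higher in molar and 0 in incisor, with sums of 21.1 and 299.8, and Cldn5 was listed at 0 in incisor. Some of the called endothelial markers had molar values below the receptor genes' 99th percentile of 3.78. Macrophage markers had 3 of 10 called toward molar and 1 toward incisor, with sums of 5420 in incisor and 8122 in molar. Schwann cell and glia markers had 2 of 7 called toward molar and 0 toward incisor, with sums of 53.9 and 64.3. Cartilage markers had 3 of 8 called toward molar and 2 toward incisor, with sums of 64.4 and 62.0. Neuron markers had 3 of 8 called toward molar (Dcx, Elavl3 and Elavl4) and 0 toward incisor. The molar values of Dcx (0.559), Elavl3 (2.27) and Elavl4 (1.19) were below the receptor genes' 99th percentile of 3.78, a range that is hard to read. The neuron sums of 66.0 and 37.1 came mostly from Tubb3, which was not called and stood at 65.5 in incisor. The part that any of these markers' cells played in the values of Dlx5 or of the other members was not tested.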

How the data were processed

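RNA of FDG-positive cells was sequenced from molar pulp (2 libraries) and incisor pulp (2 libraries). The deposited table holds, per the file headers, 1 FPKM value per tissue, already combined over its libraries by the authors, with a log2 fold change (molar over incisor, no pseudocount), a test statistic, and a p-value and q-value; the deposited test statistic is a score with the sign of the fold. The submitters' processing notes list mm10 as the build and HISAT2, Trim Galore and edgeR as tools. Not given in the sources used here are the tool that made the table, its scaling, its annotation and how its q values treat variation between libraries, which may be technical only. The columns and row names of the table have the layout of Cuffdiff output, so its q values are not taken here to come from edgeR. The authors' status column marked 18770 rows as tested.

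Computed here with Python 3.11.15 and pandas 2.3.3 were ranks, sums, ratios, counts of rows with q under 0.05 and medians of log2 FPKM with a pseudocount of 1. No test was run, since the table holds 1 value per tissue, and no interval or depth can be given. Where a symbol had several rows, that of highest mean FPKM stood for it (23712 symbols; 273 rows set aside), and 231 rows that join several genes were left out of lists. Starts were made 1-based. Gene models and transcripts came from GENCODE M21 and were aligned with MAFFT 7.526. Of the 6 members, 2 had a promoter window in the RefSeq table.

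The members, the 6 related gene lists and the 9 marker lists were chosen with earlier results of these data known. Named were all members; of each list the called genes, at most 6 by fold, and the most abundant uncalled ones, at most 4; the nearest 3 genes on each side of a pair; and the 5 highest homeobox genes per tissue. Homeobox genes were taken by symbol prefix, and Arxes1, Arxes2, Islr, Islr2, Pbxip1, Pou2af1 and antisense transcripts, which such prefixes also match, were left out. Homeobox families whose symbols have other prefixes were not counted or ranked. Some genes that this rule would name are not reported here. Edn1, Ednra, Runx2, Sp7, Amtn, Slc34a2 and 4 neuron markers were named for their known roles or after their values were seen. Alternatives were other call rules, pseudocounts, a minimum FPKM and other scalings.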

Additional observations from a re-analysis of the deposited data

How the results depend on the processing

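The counts of 1 member called higher in molar and 0 in incisor were the same with the authors' mark of significance, q under 0.01, a minimum FPKM of 1 in one of the tissues, and a 4-fold rule without q. The median log2 fold of the 6 members, -0.074, was -0.077, -0.10 and -0.11 with pseudocounts of 0.1, 1 and 5, -0.28 when centred on the median row and -0.67 with equal FPKM totals. Of 30 alternatives for the members' folds, 28 kept the direction, and Dlx2 reversed to -0.033 (centred) and -0.42 (equal totals). The log2 fold of Dlx5 ranged down to 3.93 and that of Dlx6 to 0.59, both with a pseudocount of 5. No paired analysis was possible because the deposited table holds 1 combined value per tissue, and leaving out replicates could not be run for that reason. Depth is unknown, so values of about 3 FPKM or less, such as those of Dlx2, are the least certain.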
